A study of Mus musculus with 4 samples.

Results

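The melanogenesis enzymes and melanosome proteins are 10 genes, taken by symbol from the 39179 genes that the count data list: the tyrosinase family (*Tyr*, *Tyrp1*, *Dct*), the melanosome structural proteins (*Pmel*, *Mlana*), the melanocyte transporters and channel (*Oca2*, *Slc45a2*, *Trpm1*) and the receptors (*Gpr143*, *Mc1r*). The rule names them by function and uses no measured value, and each symbol matched 1 Ensembl gene in all 4 libraries. The RNA-seq data compare tumor repopulating cells (TRCs) with the B16F1 line they came from, a mouse melanoma cell line that makes pigment. Of the 4 libraries, 2 are of parental B16F1 control cells and 2 are of TRCs, the cells isolated on day 5 from spheroids that single B16F1 cells formed in soft 3D fibrin gels of 90 Pa. Both groups carry the replicate numbers 1 and 3, and no drug or engineered genetic change is named for either. The effects of growth in the gel and of selection for cells that form spheroids cannot be told apart. All cells come from 1 line, and the labels do not say whether the replicates were separate cultures, so p-values measure only the spread between these samples.

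Melanin is made from tyrosine inside melanosomes, organelles related to lysosomes, and the work is divided among the proteins of this set. Fibrils of PMEL form the scaffold, tyrosinase carries out the rate-limiting oxidation of tyrosine, DCT and TYRP1 act on later intermediates on the way to eumelanin, and OCA2 and SLC45A2 help to set a melanosomal pH at which tyrosinase works. The melanocortin 1 receptor raises cAMP, which increases the transcription of *Mitf*, and the MITF protein binds E-box elements in the promoters of many of these genes.

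All 10 pigment genes were expressed in parental B16F1 control cells and in TRCs, and 3 of them, *Trpm1*, *Oca2* and *Dct*, were upregulated in TRCs at FDR under 0.05. No pigment gene was downregulated. The remaining 7 did not pass the test: *Tyr*, whose fold change lay between those of *Oca2* and *Dct*, and *Mc1r*, next after *Dct*, differed widely between the parental libraries, and the fold changes of *Pmel*, *Mlana*, *Gpr143*, *Slc45a2* and *Tyrp1* lay between 0.12 and 0.45 on the log2 scale. The background in the same test was 15.9% of the 11483 genes tested, of which 8.81% of the genes tested were higher and 7.05% lower in TRCs, so 3 of 10 called higher compares with 8.81%. At an unadjusted exact test p under 0.05, 5 pigment genes were higher and 0 lower. Of all genes tested, 28.0% passed in either direction, 1703 of them higher and 1517 lower. In edgeR's quasi-likelihood test, *Trpm1* and *Oca2* passed, both higher, and *Dct* did not. Of all genes, 9.18% passed that test, 567 of them higher and 487 lower. For 7 of the 10 genes both TRC libraries lay above both parental libraries, against 30.2% of all genes tested. The median log2 fold change was 0.62 over the 10 genes and 0.0034 over all genes tested.

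Between 35948295 and 43511554 counts per library fell on genes. Levels are given as CPM, counts scaled to the TMM-normalized library size, in the order parental replicates 1 and 3 and TRC replicates 1 and 3, and as mean ± SD with n = 2 libraries per group. The log2 fold changes of TRCs over parental cells and their FDR come from edgeR's exact test over all genes tested, and standard errors (SE) and 95% intervals come from DESeq2, because the exact test gives none. An exact permutation test of 2 against 2 libraries cannot give a two-sided p below 0.333. In bulk RNA, fewer cells of a type and less RNA per cell cannot be told apart. A count of 3, taken as the floor, corresponds to between 0.0675 and 0.0850 CPM, far below every level of the 10 genes. Intervals and floors on counts cover counting error only.

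**Figure D1:**
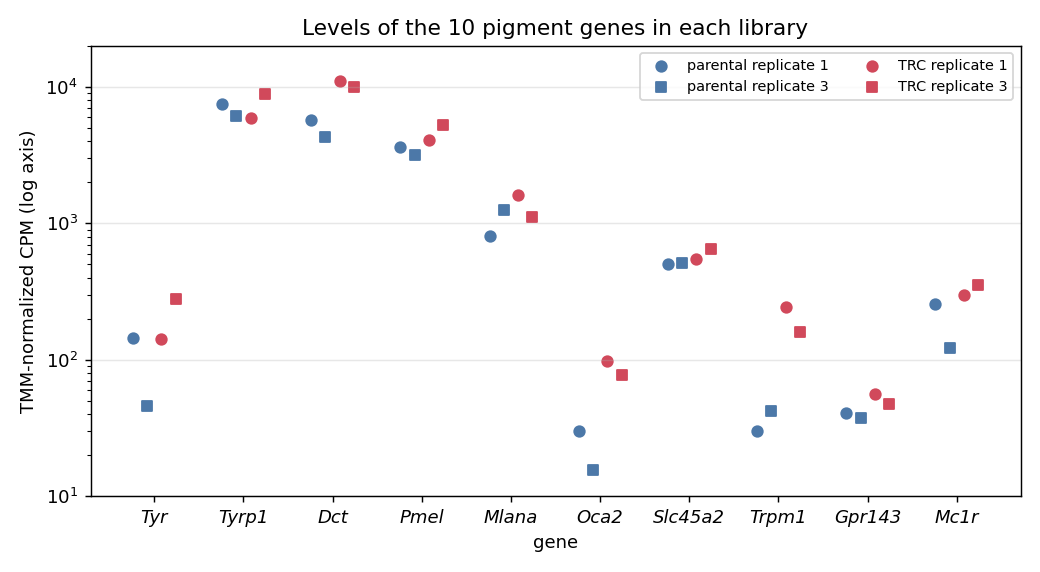
Level of each of the 10 pigment genes in each library, in TMM-normalized CPM on a log axis (blue, parental; red, TRC; circles, replicate 1; squares, replicate 3). The red points of *Trpm1*, *Oca2* and *Dct* lie well above the blue ones, while *Tyr* spans 46.2 to 144 CPM in the parental libraries and meets the TRC range.

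*Dct*, which encodes dopachrome tautomerase, was the enzyme gene that was upregulated. *Dct* (ENSMUSG00000022129, GRCm38 chromosome 14, 118012790 to 118052244, minus strand) had 5694 and 4334 CPM in the parental libraries and 11154 and 10027 CPM in the TRC libraries. Both TRC libraries were thus above both parental libraries, and the parental libraries differed 1.31-fold, more than those of 69.9% of genes tested. The mean rose from 5014 ± 962 CPM to 10591 ± 797 CPM, a log2 fold change of 1.08 (SE 0.21, exact test FDR 0.000307), with a 95% interval of the fold from 1.58 to 2.83. The call held with each library left out in turn (0.90 to 1.29 on the log2 scale, highest FDR 0.0412), but the quasi-likelihood test gave an FDR of 0.0704.

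*Tyrp1*, which encodes the tyrosinase-related protein that acts late in eumelanin synthesis and steadies tyrosinase, did not move with *Dct*. *Tyrp1* (ENSMUSG00000005994, chromosome 4, 80834123 to 80851719, plus strand) had 7479.7 and 6097 CPM in the parental libraries and 5896 and 8878 CPM in the TRC libraries. The lowest and the highest value were both from TRCs, so the groups overlapped. The log2 fold change was 0.12 (SE 0.25, 95% interval −0.37 to 0.62, exact test FDR 0.816), and it turned negative without parental replicate 3 (−0.018) and without TRC replicate 3 (−0.21).

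*Tyr*, the gene of tyrosinase itself, varied widely between the libraries of each group. *Tyr* (ENSMUSG00000004651, chromosome 7, 87424771 to 87493512, minus strand) had 144 and 46.2 CPM in the parental libraries and 142 and 277 CPM in the TRC libraries. Parental replicate 1 was level with TRC replicate 1, and parental replicate 3 stood alone at the low end. The 3.12-fold difference between the parental libraries was larger than that of 99.2% of genes tested, and the 1.95-fold difference between the TRC libraries, with replicate 3 higher, was larger than that of 96.4%. The means were 95.1 ± 69.2 and 210 ± 95.4 CPM. The log2 fold change of 1.14 (SE 0.87, 95% interval −0.56 to 2.85) had an exact test p of 0.01 and an FDR of 0.0593. The size of the change of *Tyr* depended on single libraries. Without parental replicate 1 the log2 fold change was 2.18, and without TRC replicate 1 it was 1.52. Without parental replicate 3 or TRC replicate 3 it was 0.54 or 0.57.

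The pair of structural proteins was high in every library and did not pass the test. *Pmel*, the gene of the fibril protein (ENSMUSG00000025359, chromosome 10, 128704195 to 128720238, plus strand), had 3604 and 3182 CPM in the parental libraries and 4058 and 5228 CPM in the TRC libraries. Both TRC libraries were above both parental ones, by a log2 fold change of 0.45 (SE 0.21, 95% interval 0.038 to 0.87, exact test FDR 0.202). The annotation places 105 exon bases of *Pmel* under *Dgka* and 34 under *Cdk2* on the opposite strand, and since the strand setting of the counting was not stated, reads in these stretches could be left out or assigned to either gene. *Mlana*, whose small membrane protein (also called MART-1) takes part in the maturation of PMEL (ENSMUSG00000024806, chromosome 19, 29697824 to 29708634, plus strand), had 805 and 1245 CPM in the parental libraries and 1606 and 1123 CPM in the TRC libraries. The value of TRC replicate 3 lay between those of the parental libraries, and the log2 fold change was 0.41 (SE 0.28, 95% interval −0.13 to 0.96, exact test FDR 0.339). The order of the replicates of *Mlana* was opposite to that of *Tyr* in both groups.

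With all 4 libraries, the largest change in the set was that of *Trpm1*, which encodes an ion channel found in melanocytes and in retinal bipolar cells and whose transcript carries the microRNA miR-211. *Trpm1* (ENSMUSG00000030523, chromosome 7, 64153835 to 64269775, plus strand) had 30.1 and 41.9 CPM in the parental libraries and 243 and 161 CPM in the TRC libraries. The lower TRC library was well above the higher parental library. The means were 36.04 ± 8.35 and 202 ± 58.2 CPM, and the log2 fold change was 2.49 (SE 0.28, 95% interval 1.94 to 3.03, exact test FDR 1.04e-15). The call of *Trpm1* held when any 1 library was left out, at 2.15 to 2.75, and in the quasi-likelihood test (FDR 0.00745).

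*Oca2*, which encodes the melanosomal P protein, an anion channel, came next with all 4 libraries, but without parental replicate 1 its log2 fold change (2.50) was above that of *Trpm1* (2.27). *Oca2* (ENSMUSG00000030450, chromosome 7, 56239760 to 56536518, plus strand) had 30.1 and 15.5 CPM in the parental libraries and 97.8 and 77.97 CPM in the TRC libraries. The groups were far apart, although parental replicate 1 was 1.94 times as high as replicate 3. That parental difference was larger than that of 95.5% of genes tested. The means were 22.8 ± 10.3 and 87.9 ± 14.0 CPM, with a log2 fold change of 1.95 (SE 0.32, 95% interval 1.32 to 2.58, exact test FDR 3.22e-08). *Oca2* was called with each library left out in turn (1.55 to 2.50, highest FDR 0.00016) and in the quasi-likelihood test (FDR 0.0152).

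*Slc45a2*, the gene of the other transporter, was by contrast nearly level. *Slc45a2* (ENSMUSG00000022243, chromosome 15, 11000721 to 11029233, plus strand) had 503 and 513 CPM in the parental libraries and 549.7 and 647 CPM in the TRC libraries. The TRC values were slightly higher, with a log2 fold change of 0.24 (SE 0.19, 95% interval −0.14 to 0.62, exact test FDR 0.540).

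Neither receptor passed the test, though both TRC libraries were above both parental libraries for each. *Mc1r*, the receptor for α-MSH (ENSMUSG00000074037, chromosome 8, 123407107 to 123410744, plus strand, 1 exon), had 256 and 123 CPM in the parental libraries and 301 and 356 CPM in the TRC libraries. The parental libraries differed 2.09-fold, more than those of 96.9% of genes tested, and parental replicate 1 was close to TRC replicate 1. The log2 fold change of *Mc1r* was 0.79 (SE 0.32, 95% interval 0.17 to 1.43), with an exact test p of 0.0115 and an FDR of 0.0655. Without parental replicate 1 it was 1.42 (exact test FDR 9.37e-05), and without parental replicate 3 it was 0.36 (FDR 0.594). *Gpr143*, a receptor in the melanosome membrane that is mutated in ocular albinism (ENSMUSG00000025333, chromosome X, 152781921 to 152808646, plus strand), had 40.8 and 37.3 CPM in the parental libraries and 56.0 and 47.1 CPM in the TRC libraries. Its log2 fold change was 0.40 (SE 0.22, 95% interval −0.035 to 0.84, exact test FDR 0.258).

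**Figure D2:**
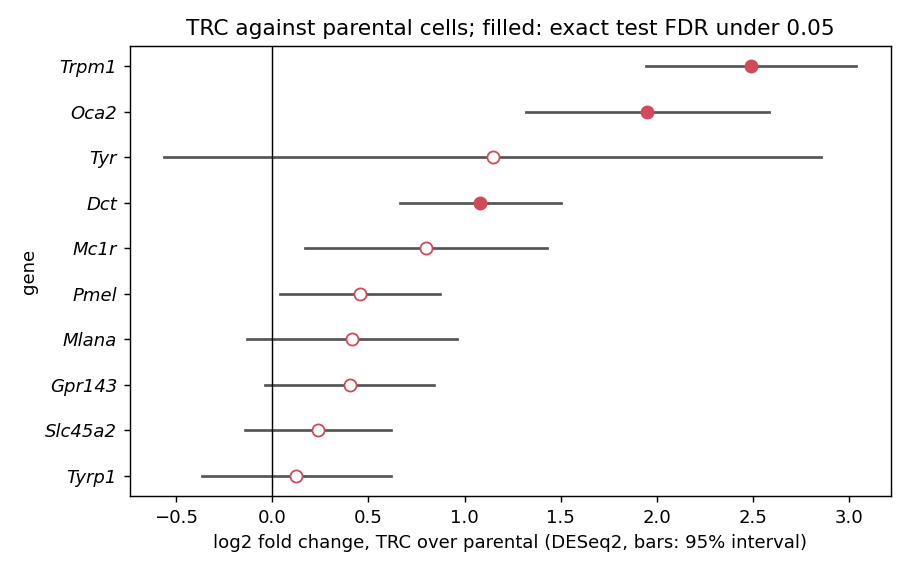
Log2 fold change of TRCs over parental cells for the 10 pigment genes (points, DESeq2 estimates from 2 libraries per group; bars, 95% intervals; filled points, exact test FDR under 0.05). The intervals of *Trpm1*, *Oca2* and *Dct* lie above 0, and that of *Tyr* runs from −0.56 to 2.85.

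The spread between parental libraries was not shared by all 10 genes. Parental replicate 1 was higher than replicate 3 for 7 of them, with a median log2 difference of 0.24 over the 10 genes against −0.0042 over all genes tested. In TRCs replicate 1 was higher than replicate 3 for 5 of the 10, with a median of −0.041. The log2 fold changes of *Tyr* and *Mc1r* were 2.18 and 1.42 without parental replicate 1, and 1.52 and 0.89 without TRC replicate 1. They were 0.54 and 0.36 without parental replicate 3, and 0.57 and 0.66 without TRC replicate 3.

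The genes whose pattern over the 4 libraries was nearest to that of *Tyr* were sought among the other 11482 genes tested, by the Euclidean distance between log2 CPM values centred on each gene's mean. The 5 nearest were *Ano3*, *Hoxb9*, *Pak3*, *4930455G09Rik* and *Pyroxd2*, at distances from 0.18 to 0.33. *Ano3*, the nearest, had 22.5 and 8.10 CPM in the parental libraries and 24.4 and 51.2 CPM in the TRC libraries, and as for *Tyr* parental replicate 3 was lowest and TRC replicate 3 highest. Of the pigment genes, *Mc1r* came closest at rank 71 and *Dct* was at rank 673, while *Trpm1* was farthest at rank 8866. The ranking rests on 4 libraries of 2 groups and is a description only.

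Per length, the pigment genes covered the range from the most abundant transcripts of these cells to rare ones. Levels between genes are compared as CPM per kilobase of exon (the union of a gene's exons), ranked among the 11398 genes tested that have a length. In parental cells the mean level was 2400.4 CPM per kilobase for *Tyrp1* (rank 9 of all genes), 1480.4 for *Pmel* (rank 15), 970 for *Mlana* (rank 21) and 850 for *Dct* (rank 26). *Slc45a2* followed at 170 CPM per kilobase and *Mc1r* at 52.1. At the low end stood *Gpr143* at 19.6, *Tyr* at 13.4, *Oca2* at 5.75 and *Trpm1* at 2.44 CPM per kilobase. The ranges of the 2 libraries overlapped for the neighbours *Mlana* and *Dct*, *Gpr143* and *Tyr*, and *Tyr* and *Oca2*.

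In TRCs the top of this order closed up. *Dct* reached 1797 CPM per kilobase (rank 13) and passed *Mlana* at 1291 (rank 22), below *Pmel* at 2026 (rank 10) and *Tyrp1* at 2612 (rank 9), and the ranges of *Tyrp1* and *Pmel* and of *Pmel* and *Dct* overlapped. *Tyr* at 29.5, *Gpr143* at 25.8 and *Oca2* at 22.2 CPM per kilobase lay together, with overlapping ranges between neighbours. *Oca2* moved from rank 6606 to 2320 and *Trpm1* from rank 8740 to 3692. The order depends on the length used. With the longest transcript in place of the exon union, 3 of the 10 places in the TRC order were kept. *Dct*, with 5895 bases of exon union and 3459 in its longest transcript, then stood above *Mlana* in parental cells already (1449 against 1131 CPM per kilobase) and came first in TRCs at 3062, before *Tyrp1* at 2716 and *Pmel* at 2179.7, so its move past *Mlana* is seen only with the exon union. *Trpm1*, with 14746 and 5711 bases, moved from the 10th to the 7th place in TRCs.

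Together the 10 genes took 1.92% and 1.53% of the counts on genes in the parental libraries and 2.47% and 2.56% in the TRC libraries. The 95% exact binomial intervals were narrow, from 1.53% to 1.54% at the lowest library and from 2.56% to 2.57% at the highest. The means were 1.73 ± 0.276% in parental cells and 2.52 ± 0.0677% in TRCs. Most of the difference was in the counts of *Dct*, which took 0.590% and 0.425% in the parental libraries and 1.14% and 0.959% in the TRC libraries. *Tyrp1*, *Dct*, *Pmel* and *Mlana* made up between 94.2% and 95.04% of the counts of the set, so *Trpm1* and *Oca2*, whose fold changes were larger, hardly enter the sum.

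**Figure D3:**
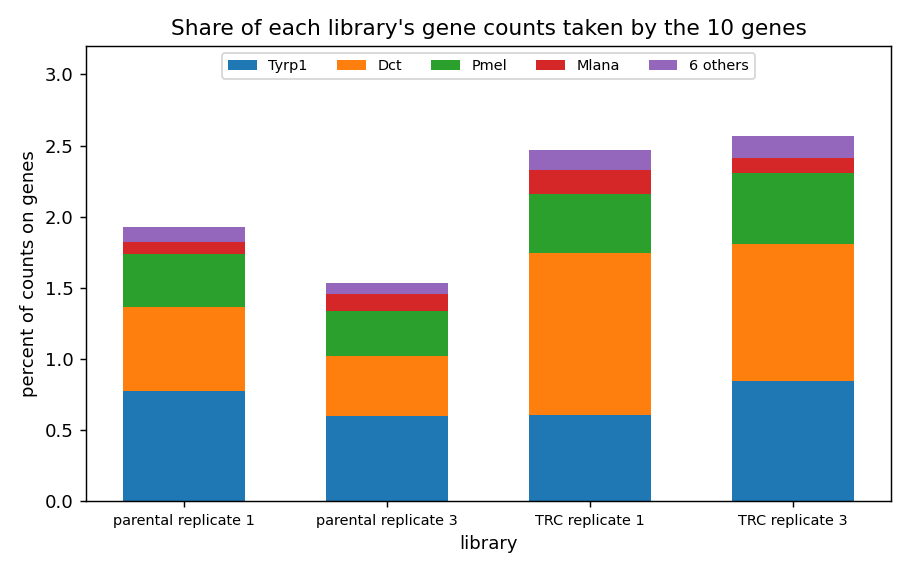
Percent of the counts on genes taken by the pigment genes in each library, stacked by gene. The bars reach 1.92 and 1.53 in the parental libraries and 2.47 and 2.56 in the TRC libraries, and the *Dct* segment grows from 0.590 and 0.425 to 1.14 and 0.959.

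The promoters are shown for the 3 genes that were upregulated and, to compare them with those that were not called, for *Tyr* and *Tyrp1*. RefSeq windows (GRCm38.p6, from 250 bases before the start of transcription to 50 after it) were found for 6 of the 10 genes, with 2 windows for *Trpm1*, and *Pmel*, *Mlana*, *Slc45a2* and *Gpr143* had none. Each is written from 5′ to 3′ on the strand of the gene. In the windows of *Tyr* and *Tyrp1* the capitals mark their longest shared run, which contains the E-box CATGTG, and in the others they mark CATGTG, its reverse complement CACATG, or the E-box CACGTG.
Tyr promoter, chr7:87493463-87493762, minus strand: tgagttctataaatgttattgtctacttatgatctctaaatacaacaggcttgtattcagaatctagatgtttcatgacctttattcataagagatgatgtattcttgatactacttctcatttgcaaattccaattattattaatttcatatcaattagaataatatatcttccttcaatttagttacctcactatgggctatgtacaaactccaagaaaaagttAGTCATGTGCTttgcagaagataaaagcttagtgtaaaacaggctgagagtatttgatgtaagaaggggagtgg
Tyrp1 promoter, chr4:80833963-80834262, plus strand: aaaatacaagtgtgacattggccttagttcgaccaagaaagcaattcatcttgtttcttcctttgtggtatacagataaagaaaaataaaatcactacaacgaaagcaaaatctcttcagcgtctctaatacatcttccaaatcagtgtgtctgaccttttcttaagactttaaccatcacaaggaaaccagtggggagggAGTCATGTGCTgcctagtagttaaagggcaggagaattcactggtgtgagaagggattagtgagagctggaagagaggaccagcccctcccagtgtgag
Dct promoter, chr14:118052197-118052496, minus strand: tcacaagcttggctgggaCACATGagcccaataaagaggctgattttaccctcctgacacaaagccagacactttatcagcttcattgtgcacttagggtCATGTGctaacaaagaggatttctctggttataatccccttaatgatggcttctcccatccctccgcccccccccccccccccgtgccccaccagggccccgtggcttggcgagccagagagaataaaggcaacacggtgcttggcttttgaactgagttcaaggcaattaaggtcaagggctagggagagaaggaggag
Oca2 promoter, chr7:56239509-56239808, plus strand: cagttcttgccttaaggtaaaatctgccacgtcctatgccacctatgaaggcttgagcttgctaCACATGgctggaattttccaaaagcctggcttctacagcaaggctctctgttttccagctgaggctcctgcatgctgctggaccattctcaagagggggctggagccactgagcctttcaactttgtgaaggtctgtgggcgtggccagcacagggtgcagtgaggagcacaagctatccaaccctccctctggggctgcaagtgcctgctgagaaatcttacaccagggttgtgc
Trpm1 first promoter, chr7:64153585-64153884, plus strand: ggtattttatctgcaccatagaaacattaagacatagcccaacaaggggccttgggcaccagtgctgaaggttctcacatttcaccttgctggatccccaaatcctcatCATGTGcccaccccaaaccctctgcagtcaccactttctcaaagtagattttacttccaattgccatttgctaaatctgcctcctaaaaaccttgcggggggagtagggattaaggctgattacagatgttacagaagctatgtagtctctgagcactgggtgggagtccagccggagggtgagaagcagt
Trpm1 second promoter, chr7:64185209-64185508, plus strand: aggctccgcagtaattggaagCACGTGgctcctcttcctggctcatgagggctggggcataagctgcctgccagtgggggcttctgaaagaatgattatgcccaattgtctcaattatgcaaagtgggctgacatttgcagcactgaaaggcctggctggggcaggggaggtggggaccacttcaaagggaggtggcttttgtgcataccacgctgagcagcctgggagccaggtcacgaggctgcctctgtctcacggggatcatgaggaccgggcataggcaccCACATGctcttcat

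CATGTG on either strand occurred in all 7 windows of the 6 genes, *Mc1r* included, and in 14.2% of the 32851 RefSeq windows of the same length. It began 21 bases before the RefSeq start in *Tyr*, 46 in *Tyrp1*, 141 in the first window of *Trpm1*, 186 in *Oca2*, and 150 and 232 in *Dct*. The farther one of *Dct* and that of *Oca2* were on the reverse strand. The GENCODE start of *Tyrp1*, 80834123, lies earlier in the window, so by that annotation its CATGTG is past the start. CACGTG occurred in 1 of the 7 windows, the second of *Trpm1*, 229 bases before the start, and in 7.15% of all windows, and the same window held CACATG past the start. The 11 letters that *Tyr* and *Tyrp1* share, AGTCATGTGCT, are those of the element known as the M-box, a site of MITF, and were present in 7 of the 32851 windows (0.0213%). *Dct* had 10 of these letters in a row, and 220 of the 32851 windows (0.67%) matched the run with at most 1 mismatch. A link between the run and the changes in TRCs was not tested. Runs of 7 to 12 letters were shared by other pairs of these windows, and the longest, between *Dct* and *Mc1r*, holds no E-box of either kind. These matches are letters in a window, chosen after the windows were seen, and say nothing of binding in these cells.

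The miR-211 hairpin lies within an intron of *Trpm1*, on chromosome 7, and its mature form is printed with that of miR-204, encoded on chromosome 19, because the 7 letters of the seed (bases 2 to 8, in capitals) are the same in both.
mmu-miR-211-5p: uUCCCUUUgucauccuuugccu
mmu-miR-204-5p: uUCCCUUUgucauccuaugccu
The mature sequence of miR-211 (RefSeq, GRCm38.p6) spans 64205831 to 64205852 on the plus strand. The counts do not measure it: *Mir211* had 1, 0, 1 and 1 counts in the 4 libraries, which were made from polyA RNA, and its level is not reported here.

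Genes on chromosomes 7 and 14, which carry *Tyr*, *Oca2*, *Trpm1* and *Dct*, had higher median fold changes than those of other chromosomes. Over the 807 other genes tested on chromosome 7 the median log2 fold change was 0.17, and over the 384 on chromosome 14 it was 0.13, against −0.093 to 0.076 on the remaining chromosomes. On chromosome 7 12% of genes were called higher and 2.97% lower, and on chromosome 14 12% and 2.86%. The difference was greater in TRC replicate 1, whose median over TRC replicate 3 was 0.22 on chromosome 7 and 0.25 on chromosome 14. The parental libraries differed by 0.043 and 0.015. Between the TRC libraries, chromosomes 17 and 11 lay the other way, at −0.19 and −0.17. The median of TRC replicate 1 over parental replicate 1 was 0.25 on both chromosomes 7 and 14, against −0.19 to 0.10 on the remaining chromosomes. The median of TRC replicate 3 over parental replicate 3 was 0.080 on chromosome 7 and 0.043 on chromosome 14. The remaining chromosomes lay at −0.076 to 0.070 in that pair, so chromosome 14 was within their range. Without TRC replicate 1 the log2 fold changes were 2.15 for *Trpm1*, 1.76 for *Oca2* and 0.98 for *Dct*. The part of the chromosome-wide differences in the calls was not tested.

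**Figure D4:**
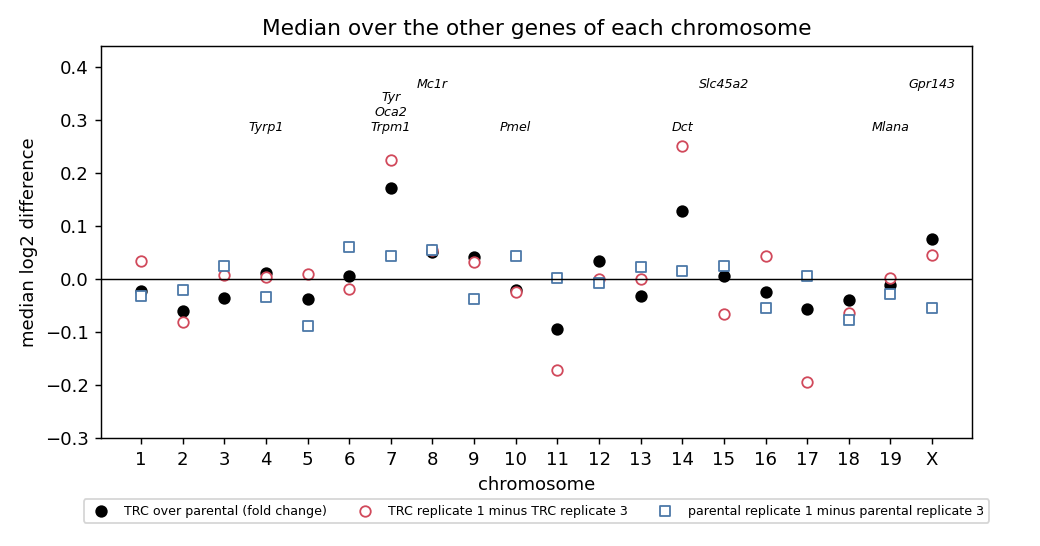
Median log2 difference over the genes of each chromosome other than the pigment genes (black, TRC over parental; open red, TRC replicate 1 minus 3; open blue, parental replicate 1 minus 3), with the pigment genes written above their chromosomes. Chromosomes 7 and 14 have the highest black and red points, at 0.17 and 0.13 for the fold change and 0.22 and 0.25 between the TRC libraries.

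The other genes of pigment cells were described with 4 lists of 100 genes in all, of which 78 were tested: 8 were called higher and 7 lower (19.2%, against 15.9% of all genes tested), and their median was 0.18 on the log2 scale. Of the lineage regulators, 12 were tested, 1 was higher and 0 were lower (8.33%, against 15.9% of all genes tested). *Tbx2*, a T-box factor of melanocytes, rose from 90.9 and 89.0 CPM to 180 and 202 CPM (log2 fold change 1.09, exact test FDR 8.37e-05), and it was called with each library left out. *Mitf*, the master regulator of the lineage, had 586 and 358 CPM in the parental libraries and 523 and 570 CPM in the TRC libraries (log2 fold change 0.21, exact test FDR 0.664). Parental replicate 3 of *Mitf* was the lowest of the 4 values, as for *Tyr*, *Mc1r*, *Dct*, *Pmel*, *Oca2* and *Gpr143*, and for *Sox10* and *Pax3*. It was not the lowest for *Tyrp1*, *Mlana*, *Slc45a2* and *Trpm1*. *Sox10*, a factor upstream of *Mitf*, had 602, 451, 590 and 567 CPM (0.14, exact test FDR 0.764), and *Pax3*, another, had 315, 207, 272 and 242 CPM (−0.02, FDR 0.968). For both, the parental libraries enclosed the TRC libraries, and without single libraries the sign of the fold change turned.

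Of the genes of melanosome sorting and transport, 32 were tested: 3 were called higher and 4 lower (21.9%, against 15.9% of all genes tested), and the median over the list was 0.20 on the log2 scale. *Rab17*, a small GTPase that takes part in melanosome release, had 3.91 and 4.62 CPM in the parental libraries and 11.9 and 31.2 CPM in the TRC libraries (log2 fold change 2.34, exact test FDR 2.04e-05). Without TRC replicate 3 its log2 fold change was 1.47 and the call was lost. *Bace2*, the protease that cleaves PMEL, rose from 270 and 205 to 453 and 455 CPM (0.93, exact test FDR 0.00191), and the call was lost without parental replicate 3 (0.75). *Myo5a*, the motor that holds melanosomes in the cell periphery, had 684 and 735 CPM in the parental libraries and 1399.6 and 1128 CPM in the TRC libraries (0.83, FDR 0.00558), a call that was lost without parental replicate 1 (0.78), parental replicate 3 (0.89) or TRC replicate 1 (0.65). Of the genes that were lower, *Kif5b*, a kinesin heavy chain, fell from 777 and 980 CPM to 426 and 469 CPM (−0.97, exact test FDR 0.000961), and the call was lost without parental replicate 3 (−0.80) or TRC replicate 1 (−0.92). *Rab32*, a GTPase that directs pigment enzymes to melanosomes, had a log2 fold change of −0.71 (exact test FDR 0.0208) and lost its call without parental replicate 3 (−0.64), TRC replicate 1 (−0.86) or TRC replicate 3 (−0.58). *Ap3d1*, a subunit of the AP-3 adaptor, was at −0.62 (FDR 0.0422) and was not called without any 1 of the 4 libraries (−0.67 to −0.58).

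Among genes of the melanosome membrane and pigment accessory genes, 14 were tested, of which 2 were higher and 2 lower (28.6%, against 15.9% of all genes tested), with a median of 0.30. The cystine transporter gene *Slc7a11*, whose product supplies cysteine for pheomelanin and glutathione, had 330.0 and 182 CPM in the parental libraries and 10.3 and 33.7 CPM in the TRC libraries. The groups were far apart, and the log2 fold change of −3.54 (SE 0.87, exact test FDR 6.09e-11) was called with each library left out (−4.65 to −2.94). *Atp7a*, which carries copper to tyrosinase, rose from 77.5 and 83.3 CPM to 144 and 172 CPM (0.98, exact test FDR 0.00057) and was also called each time. *Ostm1*, a partner of the chloride transporter CLC-7, had a log2 fold change of 0.63 (exact test FDR 0.0314), and *Clcn7*, the gene of CLC-7 itself, −0.63 (FDR 0.0462). The call of *Ostm1* was lost without any 1 library (0.55 to 0.69), and that of *Clcn7* held only without parental replicate 3 (−0.81 to −0.42 over the 4). *Slc24a5*, a cation exchanger of pigment cells, had 516 and 448 CPM in the parental libraries and 455 and 522 CPM in the TRC libraries, with overlapping groups and a log2 fold change of 0.02 (exact test FDR 0.972).

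Of the melanocortin and cAMP signalling genes, 20 were tested, of which 2 were higher and 1 was lower (15%, near the 15.9% of all genes tested), with a median of 0.075. *Pde4d*, a phosphodiesterase that degrades cAMP, rose from 13.3 and 9.01 CPM to 22.6 and 28.2 CPM (1.19, exact test FDR 0.00549), and the call was lost without parental replicate 3 (0.93) or TRC replicate 3 (1.01). *Adcy3*, an adenylyl cyclase, had a log2 fold change of 0.70 (exact test FDR 0.0211) and *Prkar2a*, a regulatory subunit of protein kinase A, −0.62 (FDR 0.0484). *Adcy3* was not called when any 1 library was left out (0.62 to 0.75), and *Prkar2a* was called only without parental replicate 1 (−0.79).

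**Figure D5:**
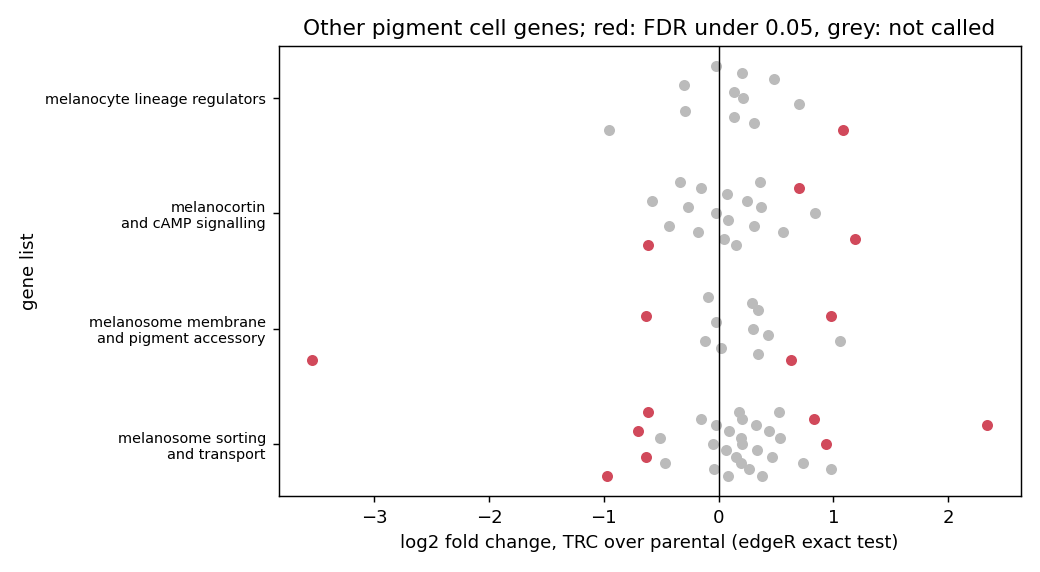
Log2 fold change (edgeR exact test, TRCs over parental cells) of each gene tested in the 4 lists of other pigment cell genes, 1 point per gene, red where FDR was under 0.05. Red points lie on both sides of 0 in 3 lists, and the point farthest out, at −3.54, is *Slc7a11*.

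The identity of the cells was checked with markers outside the set. Of 8 markers of the melanocyte lineage, 7 were tested and 0 were called (exact test), with a summed level of 6153 to 8314 CPM in the parental libraries and 6934 to 7612 CPM in the TRC libraries, and *Ednrb* had at most 1 count. Most of that sum was *Gpnmb*, a melanosome glycoprotein gene, with 6232 and 4645 CPM in the parental libraries and 5694 and 4993 CPM in the TRC libraries. Pigment genes are also expressed by the retinal pigment epithelium: of its 8 markers, 6 were under 1 CPM in every library, and *Rgr* and *Otx2* were at 0. The summed level rose from between 0.922 and 1.16 CPM to between 12.6 and 26.3 CPM. Most of the TRC level was *Kcnj13*, a potassium channel, at 23.2 and 10.9 CPM (log2 fold change 6.48, exact test FDR 8.13e-23). *Rlbp1* (at most 2.19 CPM), *Lrat* and *Ttr* (under 1 CPM), which were not tested, also had both TRC libraries above both parental libraries. For *Rpe65* and *Best1* the groups overlapped. The fibroblast markers summed to 9.83 to 11.4 CPM in parental cells and 3.12 to 5.80 CPM in TRCs, with *Col1a2* lower. All 7 leukocyte markers and all 4 endothelial markers were under 1 CPM, with 5 and 2 of them at 0, and the 4 keratinocyte markers were at 0 in every library. The part of these shifts in the levels of the pigment genes was not tested.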

How the data were processed

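RNA-seq was run on 2 TRC libraries and 2 parental B16F1 libraries, grouped by the labels. The authors deposited raw counts per Ensembl gene: per the labels and the study's methods, reads of stranded polyA libraries were trimmed with Trimmomatic 0.35, aligned to GRCm38 with TopHat2 2.1.0 and counted with HTSeq, whose mode and strand setting are not given in the sources used here. Reads that aligned to more than 1 place (15.2% to 25.2% of alignments) were not assigned. Symbols, positions and exons came from GENCODE M21 (37607 of 39179 identifiers found).

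Genes with less than 1 CPM in at least 3 samples were removed, which left 11483. The groups were compared in edgeR 4.0.16 (R 4.3.3) with TMM factors, common and tagwise dispersions and the two-sided exact test (prior count 0.125), with Benjamini-Hochberg FDR under 0.05. DESeq2 1.42.0 gave SE and intervals. Log2 differences between libraries used CPM plus 0.5. On simulated data with 200 of 11483 genes changed by 1.5 log2, the exact test recovered 167 with 11 false calls, and DESeq2 168 with 22. The counts were drawn independently per gene with the dispersions of the exact test fit. No shift over a chromosome was simulated, so these rates need not hold in the data.

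The alternatives were other filters (none, at least 1 CPM in at least 3 samples, at least 10 counts in every sample), scaling by library size only or by DESeq2 size factors, DESeq2's Wald test, the quasi-likelihood test with no block or with a replicate block, each library left out, shares of all alignments and the longest transcript. The members and lists were chosen with earlier results of these data known. Genes named are all 10 members, up to 3 called genes per list and direction with the smallest FDR, *Mitf*, *Sox10*, *Pax3* and *Slc24a5*, and the 5 genes nearest to *Tyr*. Genes over a member are named where they had a count in any library, and genes next to a member where they were called. *Asip* and *Vamp7*, on the lists, were not analysed here. Motifs were searched on both strands. Plots were drawn with matplotlib 3.10.9.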

Additional observations from a re-analysis of the deposited data

How the results depend on the processing

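*Trpm1* and *Oca2* were called under every alternative run, and *Dct* under all but the quasi-likelihood test without a replicate block. Over all genes, the quasi-likelihood test called 1054 (567 higher, 487 lower) in place of 1822, and with a replicate block 785 (477 higher, 308 lower), the cause of which was not tested. Over the 4 lists it called 9 without and 6 with the block, of which sorting and transport had 4 and 3, the membrane list 2 and 2, and, with the block, the cAMP list 0 (unadjusted p under 0.05: 4 higher and 1 lower). The deviations of same-numbered libraries correlated with r = 0.0267 across genes. This describes expression only and cannot tell whether same-numbered samples were made or handled together, which the labels do not say. The block kept 3 pigment genes called. Without the low-count filter the cAMP list had 1 call and the membrane list 2, and DESeq2's Wald test called 5 of the cAMP list. Over all alignments the pigment genes took 1.37% in parental cells and 1.86% in TRCs. Leaving out each library in turn gave 773 to 1932 calls over all genes, 3 to 5 of the pigment genes, 5 to 13 over the lists, 1 to 6 in sorting and transport, 2 to 3 in the membrane list, 0 to 3 in the cAMP list and 1 in each fit for the lineage list. It turned the sign of uncalled fold changes for *Tyrp1* (−0.21 to 0.37), *Mitf* (−0.10 to 0.61), *Sox10* (−0.056 to 0.36), *Pax3* (−0.29 to 0.31) and *Slc24a5* (−0.093 to 0.12). *Slc24a5* was also negative without the filter (−0.010) and with library size only (−0.014), and *Pax3* positive with the block (0.0058). These leave-one-out fits leave 1 library in a group, which is assumed to vary like the other group. With 1631 counts or more in every library, *Tyr* was deeply counted, and its libraries differed up to 3.12-fold within a group.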

Other observations

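The nearest tested gene on either side of each pigment gene made 20 neighbours, of which 3 were higher in TRCs and 0 were lower in the exact test, against 8.81% and 7.05% of all genes tested. *Tubb3*, a neuronal tubulin gene that begins 680 bases beyond *Mc1r*, had a log2 fold change of 0.92 (exact test FDR 0.00489). *Rab5b*, an early endosome GTPase gene beside *Pmel*, was at 0.82 (FDR 0.0151), and *Gpc6*, a glypican gene beside *Dct*, at 0.75 (FDR 0.0383). Neither *Trpm1* nor *Oca2* had a called neighbour.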
